A study of Mus musculus with 12 samples.

Results

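In mouse melanomas treated with 2 drugs, 10 genes were followed: the transcription factors Mitf, Sox10, Pax3, Tfap2a and Lef1 and the receptors Kit, Ednrb, Erbb3, Axl and Ngfr. They were chosen by name, as regulators and receptors of the melanocyte and melanoma lineage, and make up 10 of the 50600 genes in the expression table. Each name matched 1 gene. None of the 9 that could be tested passed an adjusted p of 0.05 in any of 8 comparisons between treatments, and their levels in every tumour are given below.

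The tumours grew from 50000 B16F10 cells, a pigmented melanoma line that arose in C57BL/6 mice, placed under the skin of C57Bl/6 hosts with an immune system of their own; the labels give the genotype as wild. Mice received alisertib, an inhibitor of the mitotic kinase Aurora A, at 25 mg/kg; navitoclax, which blocks the anti-apoptotic BCL-2 family members BCL-2, BCL-xL and BCL-w, at 100 mg/kg; both drugs at those doses (the combination); or drug vehicle. All were dosed by mouth once daily for 11 days, and 3 libraries of total tumour RNA depleted of ribosomal RNA were made per group, 12 in all. The labels give neither the age nor the sex of the mice, nor whether each library came from a separate mouse; the spread behind every p-value is that between these libraries and may be technical.

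As background, MITF is the basic helix-loop-helix factor that switches on pigment genes and helps melanocytes survive and divide. SOX10 and PAX3 both bind and activate the melanocyte promoter of Mitf, TFAP2A acts beside MITF on many of its targets, and LEF1 carries the Wnt and beta-catenin signal to the same promoter. KIT, EDNRB and ERBB3 receive growth signals of the neural crest and melanocyte lineage, whereas melanoma cells that lose MITF often gain AXL, and melanoma cells in a neural crest-like state carry NGFR.

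The promoter of the melanocyte form of Mitf is shown because several of these factors meet on it. Mitf (ENSMUSG00000035158.15) spans chr6:97807052-98021349 on the plus strand (GRCm38), and the window of 300 bases below surrounds the most downstream of its 3 start sites in RefSeq (GRCm38.p6, chr6:97991533-97991832, plus strand), with 250 bases before the start and 50 after it. Capitals mark the sequence CTTTGA, a core motif of LEF and TCF factors.
Mitf promoter: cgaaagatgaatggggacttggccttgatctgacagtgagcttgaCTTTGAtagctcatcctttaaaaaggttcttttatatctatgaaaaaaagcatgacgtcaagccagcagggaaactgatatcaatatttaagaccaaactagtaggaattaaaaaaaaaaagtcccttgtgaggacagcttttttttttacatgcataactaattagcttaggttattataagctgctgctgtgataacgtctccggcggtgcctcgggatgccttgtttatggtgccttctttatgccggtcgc
The first base of the motif lay at position -205 from the start site. CTTTGA was searched on both strands, and 16% of 32851 RefSeq promoters of this length hold it. The other 3 motifs searched, the E-box forms CATGTG and CACGTG and the SOX motif ACAAAG, were not in this window, and 14.2%, 7.15% and 18.7% of promoters hold them. Across 14 promoters of 7 of the genes (Axl, Ednrb, Kit, Lef1, Mitf, Ngfr and Tfap2a), CTTTGA was found in 3, which belong to Lef1 and Mitf.

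The libraries held 26.8 M to 36.7 M gene-assigned reads. The 2 loci with ribosomal sequence, Gm26917 and Gm42418, made up 63.3% of vehicle 2 and 73.7% of combination 3 by reads, against 13.8% to 35.4% in the other 10 libraries. Other genes were therefore left with 9.86 M and 7.08 M reads in these libraries, against 21.9 M to 27.6 M elsewhere. The summed level of 7 fibroblast markers was also highest in this pair, at 113784 and 175275 against 7835 to 49883. That sum was carried by the collagen genes Col1a1, Col1a2 and Col3a1, each highest in the pair; the other 4 markers were not, and Dcn was lowest of all libraries in vehicle 2, at 4.90 against 13.99 to 285 in the other 10. The melanocyte markers Tyr, Dct, Pmel, Mlana and Tyrp1 summed to 389043 to 626817 in every library, which matches the labelled cell type; 5 keratinocyte markers summed to at most 6.55, except in combination 3, where they summed to 209.9. Printed differences of the tested genes that moved by over 1.5 times or changed sign without this pair are given both ways. All levels below are the authors' normalized values unless a value per kilobase (kb) of exon is named. In bulk tumour RNA, fewer cells of a type and less RNA per cell cannot be told apart.

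Per kb of exon, Sox10 was the most abundant of the 10 genes, at 5828 ± 711 (SD over 12 libraries), which placed it 137th of 29603 genes. Mitf followed at 1877 ± 443 and Erbb3, a receptor for neuregulins, at 1740 ± 254. Pax3 stood at 747 ± 178, Tfap2a at 515 ± 107 and Axl at 461 ± 138. Each of these 6 genes ranked above at least 90.9% of genes.

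The remaining 4 genes were far lower. Ednrb, the endothelin receptor, had a level of 54.5 ± 16.6 per kb, Kit 4.19 ± 2.72, Ngfr 3.78 ± 2.49 and Lef1 0.173 ± 0.226. Sox10 exceeded Mitf in 12 of 12 libraries, Erbb3 exceeded Pax3 in 12, Axl exceeded Ednrb in 12, Ednrb exceeded Kit in 12 and Ngfr exceeded Lef1 in 12. Neighbours that changed places were Mitf and Erbb3 (Mitf higher in 9 of 12), Pax3 and Tfap2a (11 of 12), Tfap2a and Axl (7 of 12) and Kit and Ngfr (8 of 12).

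**Figure D1:**
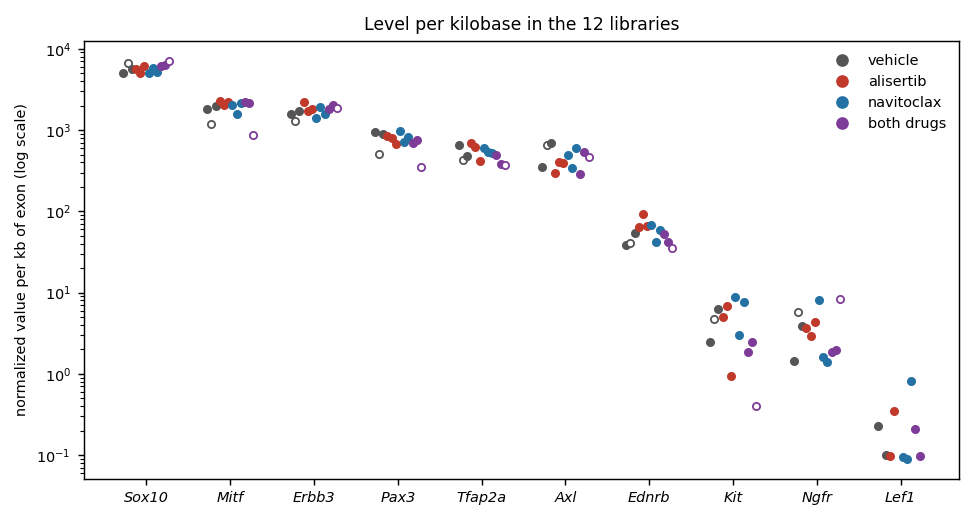
Level of each gene per kilobase of exon (log scale) in the 12 libraries, coloured by treatment, with open symbols for vehicle 2 and combination 3; libraries with no Lef1 read are not drawn. Sox10 lies above every other gene in all 12 libraries, and Kit, Ngfr and Lef1 lie far below the rest.

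Mitf and Pax3 had the widest spread among the abundant factors. The level of Mitf was 11335, 7427 and 12335 in vehicle 1, 2 and 3, and 14143, 12700 and 13798 under alisertib. It was 12657, 9726 and 13192 under navitoclax, and 13526, 13358 and 5392 in the combination. The 2 lowest libraries were vehicle 2 and combination 3, those with the high ribosomal share, and the 3 alisertib libraries all lay above the 3 vehicle libraries. The same held for 21.2% of the 16993 genes tested, in either direction.

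For Mitf the difference between alisertib and vehicle, in log2(value + 2), was 0.42 ± 0.32 (SE; adjusted p = 0.603, limma), between navitoclax and vehicle 0.21 ± 0.32 (adjusted p = 0.794) and between the combination and vehicle -0.03 ± 0.32 (adjusted p = 0.978). The interaction of the drugs was -0.66 ± 0.46 (adjusted p = 0.456). Without vehicle 2 and combination 3 these differences from vehicle were 0.19 ± 0.14, -0.0086 ± 0.14 and 0.18 ± 0.15, and the interaction was -0.0011 ± 0.19. In those 10 libraries the highest level was 1.45 times the lowest, in place of 2.62 times. Among 5085 tested genes with a mean of at least 1000, the median of that ratio moved from 1.91 to 1.46.

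Pax3 (ENSMUSG00000004872.15), a paired-box factor upstream of Mitf, took values of 5772, 3180 and 5515 in the vehicle libraries and 5168, 4974 and 4125 under alisertib. It took values of 6029, 4429 and 5135 under navitoclax and 4242, 4706 and 2150 in the combination. As for Mitf, the lowest values were in combination 3 and vehicle 2, and each pair of groups overlapped. The combination differed from vehicle by -0.41 ± 0.30 (adjusted p = 0.555) and the interaction was -0.58 ± 0.43 (adjusted p = 0.472), against 0.05 ± 0.21 without the 2 libraries.

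Sox10 (ENSMUSG00000033006.9), the neural crest factor that sustains the lineage, went the other way in those libraries. It was 15319, 20617 and 17125 in vehicle, 17341, 15169 and 18921 under alisertib, 15175, 17900 and 16015 under navitoclax, and 18937, 19044 and 21797 in the combination. Its 2 highest values were in combination 3 and vehicle 2, and all 3 combination libraries exceeded every alisertib and navitoclax library. The highest level was 1.44 times the lowest, a narrow range beside the median of 1.91. The combination differed from navitoclax by 0.28 ± 0.15 (adjusted p = 0.317) and from vehicle by 0.18 ± 0.15 (adjusted p = 0.609).

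**Figure D2:**
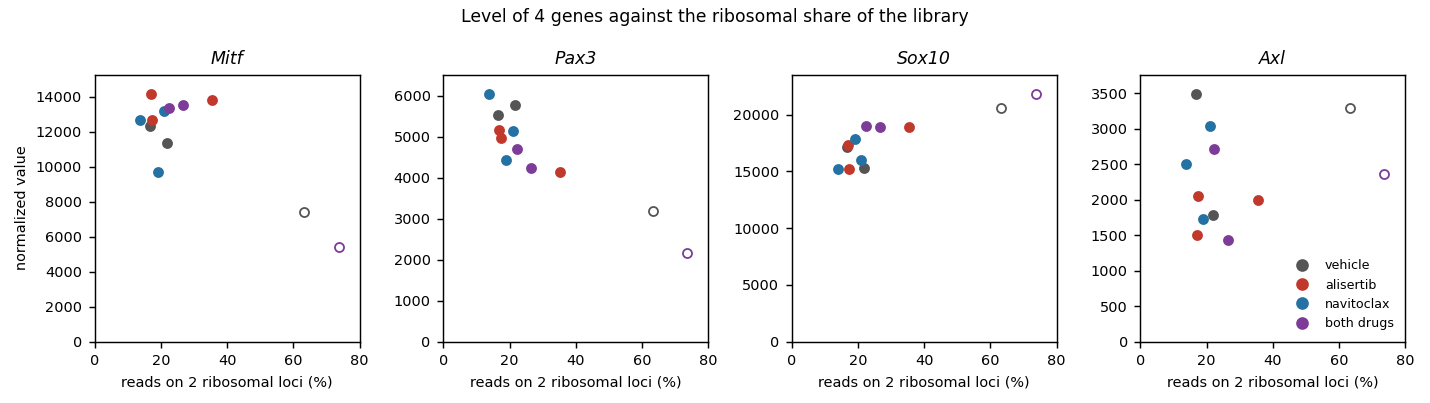
Normalized value of Mitf, Pax3, Sox10 and Axl (vertical axes) against the percent of a library's reads on the 2 ribosomal loci, 1 point per library, with open symbols for vehicle 2 and combination 3. The pair at 63.3% and 73.7% has the lowest Mitf and Pax3 and the highest Sox10, while its Axl values lie among the others.

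The part that the ribosomal share or the collagen genes played in these Mitf, Pax3 and Sox10 values was not tested. With the ribosomal share as a covariate, the combination differed from vehicle by 0.11 ± 0.16 for Mitf (adjusted p = 0.680, limma). The difference was -0.27 ± 0.097 for Pax3 (adjusted p = 0.0764) and 0.14 ± 0.098 for Sox10 (adjusted p = 0.362). The Mitf interaction in that fit was 0.0020 ± 0.25. Over the 12 libraries, the genes whose log2(value + 2) followed Mitf most closely were Xrcc5, Gm14325, Slc35f5, Cpne4 and Gm14539, with Pearson r of 0.96 to 0.97 among 11317 genes with a mean of at least 100. Over the 10 libraries without vehicle 2 and combination 3, r was 0.63 to 0.79. These points share libraries and depth, so r is a description only.

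Tfap2a (ENSMUSG00000021359.15), which encodes AP-2alpha, was 3185, 2080 and 2368 in vehicle, 3351, 3042 and 2020 under alisertib, 2948, 2648 and 2572 under navitoclax, and 2402, 1892 and 1799 in the combination. The combination libraries all lay below the navitoclax libraries and overlapped the others. The difference was -0.43 ± 0.21 from navitoclax (adjusted p = 0.306) and -0.31 ± 0.21 from vehicle (adjusted p = 0.521). Tfap2a shares 380 exon bases with the antisense gene Gm26688, which had 516 reads against 32271 of Tfap2a, and the strand setting of the counting is not given in the sources used here.

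Lef1 (ENSMUSG00000027985.14) was all but undetected, with 22 reads over all libraries and between 0 and 9 in any of them, and was not tested. Navitoclax 3 had the highest value, 7.14. Vehicle 2, alisertib 3 and combination 3 had no read, where 3 reads would correspond to values of 7.35, 2.81 and 10.9. At this depth no difference between treatments was detectable. Lef1 shares 1208 exon bases with the antisense gene Gm43352, which had 0 reads, and the strand setting of the counting is not given. Of 11 Wnt pathway partners and targets, 6 were tested and none passed in any comparison. Ctnnb1, which encodes beta-catenin, had a mean of 5669 per kb. Between the combination and vehicle the median difference of the 6 was 0.02, with 3 of them above 0. There the target gene Axin2 differed by 1.19 ± 0.30 (adjusted p = 0.0635, limma) and Tcf7l1 by -0.42 ± 0.19 (adjusted p = 0.298).

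Erbb3 (ENSMUSG00000018166.8) was the most abundant of the receptors. Its values were 9446, 7689 and 10355 in vehicle, 13136, 10322 and 10867 under alisertib, 8570, 11579 and 9377 under navitoclax, and 11037, 12151 and 11110 in the combination. All 3 combination libraries exceeded the vehicle libraries, as they did, or the reverse, for 19.2% of genes. The difference from vehicle was 0.33 ± 0.16 (adjusted p = 0.332) in the combination and 0.32 ± 0.16 (adjusted p = 0.426) under alisertib; without vehicle 2 and combination 3 the latter was 0.20 ± 0.15. Over both backgrounds, the alisertib main effect was 0.27 ± 0.11 (unadjusted p = 0.0334, adjusted p = 0.217, limma). With the ribosomal share as a covariate it was 0.30 with an adjusted p of 0.0408, the 1 alternative in which any of the 9 genes passed. In that fit 3310 of the 16993 genes tested passed in this main effect, against 765 without the covariate.

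Ednrb (ENSMUSG00000022122.14) had values of 164, 172 and 233 in vehicle and 270, 395 and 282 under alisertib. It had values of 294, 178 and 250 under navitoclax and 223, 180 and 152 in the combination. The alisertib libraries lay above all vehicle libraries and all combination libraries, and the navitoclax libraries overlapped every group. The alisertib difference from vehicle was 0.73 ± 0.25 (unadjusted p = 0.0148, adjusted p = 0.252, limma), with a 95% interval of 0.17 to 1.28. The combination differed from alisertib by -0.76 ± 0.25 (unadjusted p = 0.0115, adjusted p = 0.681), and from vehicle by -0.03 ± 0.25 (adjusted p = 0.967), or 0.034 ± 0.28 without vehicle 2 and combination 3. The interaction of the drugs on Ednrb, the smallest p of all 72 tests on these genes, was -1.09 ± 0.36 (unadjusted p = 0.0108, adjusted p = 0.436). Beside it, 5 endothelial markers had a median difference of 0.70 between alisertib and vehicle and 0.77 between navitoclax and vehicle. Their median was -0.97 between the combination and alisertib and -1.50 in the interaction, and none passed in these comparisons. The part of endothelial cells in the Ednrb values was not tested.

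Kit (ENSMUSG00000005672.12), the stem cell factor receptor, was read 501 times in all. Its values were 22.0, 41.7 and 55.6 in vehicle, 45.1, 60.4 and 8.42 under alisertib, 77.7, 26.9 and 67.4 under navitoclax, and 16.6, 22.1 and 3.62 in the combination. The combination libraries all lay below the navitoclax libraries; combination 3 rested on 1 read. The difference was -1.99 ± 0.75 (unadjusted p = 0.0217, adjusted p = 0.207, limma), with a 95% interval of -3.64 to -0.35. Mast cells also carry KIT; their 6 markers summed to between 0 and 16.05, and none could be tested.

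Axl (ENSMUSG00000002602.16) was 1776, 3293 and 3483 in vehicle and 1494, 2049 and 1999 under alisertib. It was 2500, 1728 and 3033 under navitoclax and 1435, 2719 and 2356 in the combination. All groups overlapped, and the lowest vehicle library lay among the alisertib libraries. Alisertib differed from vehicle by -0.58 ± 0.32 (adjusted p = 0.472, limma), with a 95% interval of -1.27 to 0.12. The genes that followed Axl most closely over 12 libraries were Rtn3, A230050P20Rik, Mdfic, Gsdmd and Pim1, with r of 0.77 to 0.81, and 0.72 to 0.83 without vehicle 2 and combination 3.

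Per kb, the ratio of Axl to Mitf was 0.193, 0.546 and 0.348 in vehicle, and 0.130, 0.199 and 0.178 under alisertib. It was 0.243, 0.219 and 0.283 under navitoclax, and 0.131, 0.251 and 0.538 in the combination. Mitf exceeded Axl per kb in 12 of 12 libraries, and the 2 highest ratios were in vehicle 2 and combination 3, where Mitf was lowest.

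Ngfr (ENSMUSG00000000120.6), the low-affinity neurotrophin receptor, was read 142 times in all. It was 4.99, 19.6 and 13.2 in vehicle, 12.8, 9.93 and 14.97 under alisertib, 28.1, 5.53 and 4.76 under navitoclax, and 6.47, 6.81 and 29.0 in the combination. High and low values stood in each of the vehicle, navitoclax and combination groups. The 19.6 of vehicle 2 and the 29.0 of combination 3 rested on 8 reads each, as did the 6.81 of combination 2. No difference from vehicle exceeded its standard error, which was 0.69 in each comparison, and the 95% intervals of the 3 differences ran from -1.71 to 1.64. Without vehicle 2 and combination 3 the differences were 0.48 ± 0.63 under alisertib, 0.16 ± 0.63 under navitoclax and -0.26 ± 0.69 in the combination.

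**Figure D3:**
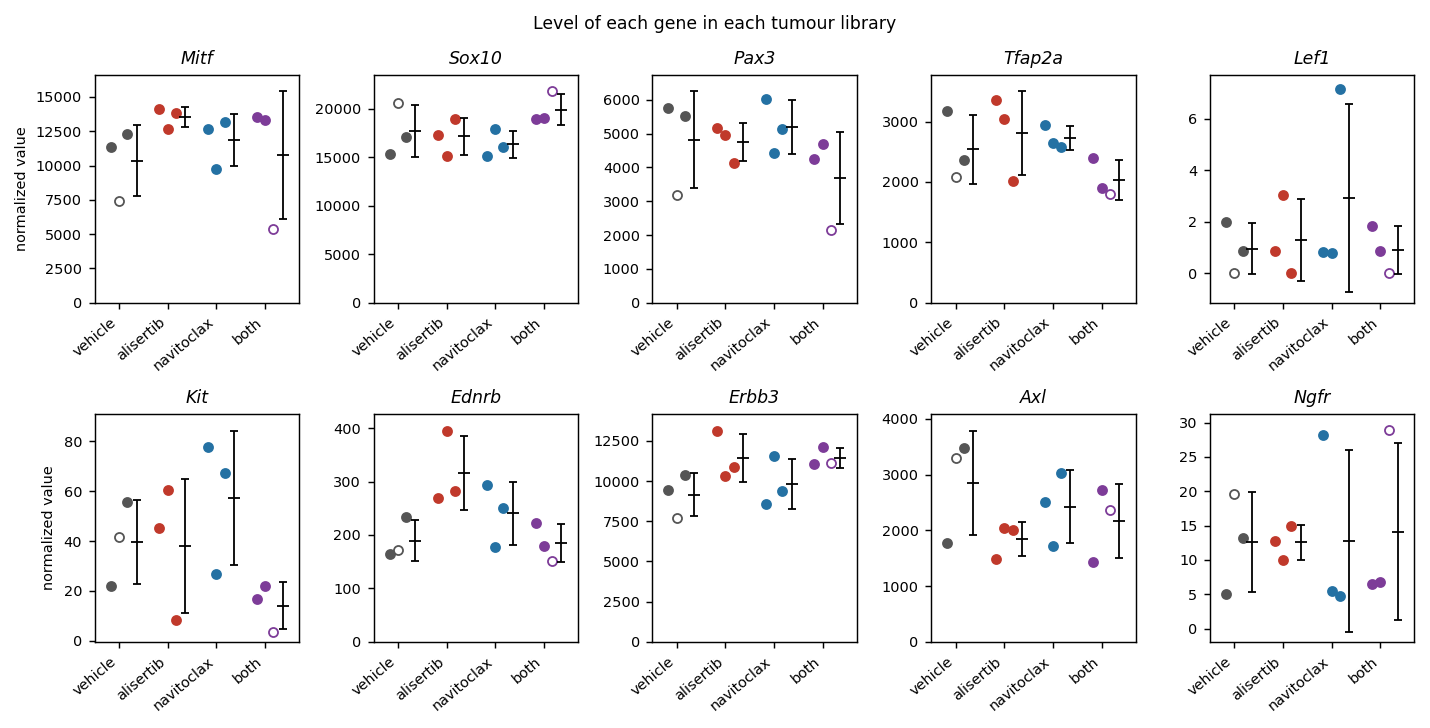
Normalized value of each of the 10 genes in the 12 libraries by treatment (both = combination), with the mean ± SD of 3 libraries beside each group and open symbols for vehicle 2 and combination 3. Mitf and Ednrb lie higher in the 3 alisertib libraries than in the vehicle libraries, and Kit and Tfap2a lie lower in the combination than under navitoclax.

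Over the 9 genes tested and 8 comparisons, 72 tests in all, 5 had an unadjusted p under 0.05 and none an adjusted p under it. Adjusted p ranged from 0.207 to 0.9999. The 5 fell in separate comparisons, 1 in each. Ednrb gave those between alisertib and vehicle, between the combination and alisertib and in the interaction. Kit gave that between the combination and navitoclax, and Erbb3 that in the alisertib main effect. The Ednrb comparisons share the alisertib libraries and are not independent. Of all genes, 13.0% had an unadjusted p under 0.05 between alisertib and vehicle, 3.51% between the combination and alisertib and 18.1% between the combination and navitoclax. The share was 18.6% in the alisertib main effect and 8.53% in the interaction. The 95% interval lay within 1 log2 unit of 0 in 42 of the 72. Of all 16993 genes, 0.871% passed between alisertib and vehicle, 0.0647% between navitoclax and vehicle and 2.54% between the combination and vehicle. Between the combination and navitoclax 1.19% passed, between the combination and alisertib 0%, in the alisertib main effect 4.5%, in the navitoclax main effect 0% and in the interaction 0.00588%.

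A share of 0 of 9 is close to these shares of all genes. The edgeR and DESeq2 models on recovered reads also called 0 of the 9 in each comparison, and each had the same number at an unadjusted p under 0.05 as limma in every comparison. The median difference of the 9 genes was 0.13 between alisertib and vehicle, 0.12 between navitoclax and vehicle and -0.03 between the combination and vehicle, against 0.01, 0.01 and -0.01 over all genes tested. These 3 comparisons share the vehicle libraries. Libraries did not overlap for 2 genes between alisertib and vehicle, 0 between navitoclax and vehicle (15.1% of all genes), 1 between the combination and vehicle, 2 between the combination and alisertib (10.3%) and 3 between the combination and navitoclax (29%). None did in the alisertib main effect, 6 libraries against 6 (4.08% of all genes), or in the navitoclax main effect (0.0471%).

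**Figure D4:**
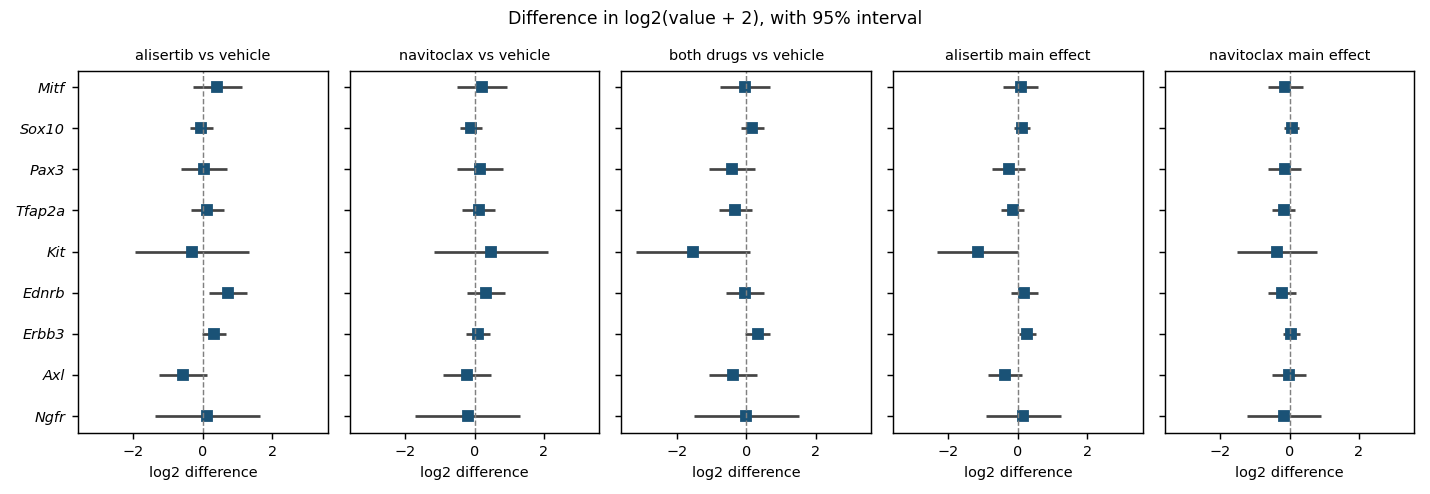
Difference in log2(value + 2) for the 9 genes tested, with 95% intervals from limma, in 5 comparisons (both drugs = combination). Kit and Ngfr, read least, have the widest intervals; the Ednrb interval for alisertib against vehicle runs from 0.17 to 1.28.

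Downstream of MITF, none of 17 target genes passed in any comparison. Their median difference from vehicle was 0.40 under alisertib, 0.40 under navitoclax and 0.32 in the combination, with 15, 16 and 16 of 17 above 0. Over all genes tested the medians were 0.01, 0.01 and -0.01, and the share of all genes above 0 is not given here. These comparisons share the vehicle libraries, so the counts are not independent. The melanocyte marker sum was lowest of all libraries in vehicle 2, at 389043. The part of vehicle 2 in these medians and counts was not tested. Between the combination and vehicle, the smallest p values belonged to Trpm1, a melanocyte ion channel (1.10 ± 0.27, adjusted p = 0.060, limma), Pmel, which forms melanosome fibrils (0.56 ± 0.15, adjusted p = 0.0752), and Slc45a2, a melanosome transporter (0.55 ± 0.15, adjusted p = 0.0876). Mc1r, the melanocortin receptor, differed from vehicle by 0.86 ± 0.22 under alisertib (adjusted p = 0.122, limma). It differed by 0.67 ± 0.22 under navitoclax (adjusted p = 0.704) and 0.77 ± 0.22 in the combination (adjusted p = 0.0967). Trpm1 differed by 0.84 ± 0.27 under alisertib (adjusted p = 0.217) and 1.06 ± 0.27 under navitoclax (adjusted p = 0.505).

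Of 11 ligands of these receptors, 4 were tested. Gas6 and Pros1, which encode ligands of AXL and its relatives TYRO3 and MERTK, passed in the alisertib main effect, and Kitl, the KIT ligand, and Ntf5, a neurotrophin, did not. In that main effect 4.5% of all genes passed. Gas6 was 132, 267 and 305 in vehicle, 435, 907 and 644 under alisertib, 533, 342 and 328 under navitoclax, and 473, 735 and 648 in the combination. All libraries of the 3 drug groups exceeded the vehicle libraries, and navitoclax 1 lay within the range of the alisertib and combination libraries. Of all genes, 21.2% did not overlap vehicle under alisertib, 15.1% under navitoclax and 19.2% in the combination, in either direction. The main effect of alisertib on Gas6 was 1.07 ± 0.25 (adjusted p = 0.0381, limma).

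Pros1 was 777, 431 and 848 in vehicle, 1231, 1362 and 1128 under alisertib, 666, 743 and 692 under navitoclax, and 1207, 1374 and 771 in the combination. The 3 alisertib libraries exceeded every vehicle and navitoclax library, whereas combination 3 lay among them. Alisertib and vehicle libraries did not overlap for 21.2% of all genes, in either direction. The main effect of alisertib on Pros1 was 0.77 ± 0.19 (adjusted p = 0.0424, limma). The 4 tested ligands had a median main effect of 0.67, against -0.01 over all genes.

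The Gas6 call was lost in 10 of 20 alternatives and the Pros1 call in 11 of 20. Without a filter on low values the adjusted p was 0.052 for Gas6 and 0.0631 for Pros1, and with TMM scaling it was 0.0535 for Pros1. Without vehicle 2 and combination 3 it was 0.0529 for Gas6, whereas the Pros1 call was kept, at 0.000872. With the ribosomal share as a covariate both calls were kept, at 0.0250 for Gas6 and 1.5e-05 for Pros1. In that fit 3310 genes passed. Without 1 library, the adjusted p for Gas6 was 0.0751 (vehicle 1), 0.0983 (alisertib 2), 0.0746 (alisertib 3), 0.0924 (navitoclax 2), 0.0816 (navitoclax 3), 0.0583 (combination 1), 0.0714 (combination 2) or 0.0566 (combination 3). For Pros1 it was 0.0696 (vehicle 1), 0.105 (alisertib 1), 0.110 (alisertib 2), 0.0679 (alisertib 3), 0.0996 (navitoclax 1), 0.0839 (navitoclax 2), 0.0817 (navitoclax 3), 0.0987 (combination 1) or 0.0782 (combination 2). Macrophage markers moved beside both: their 8 genes summed to 1439 to 3345 in vehicle, 5179 to 12318 under alisertib, 3309 to 7296.4 under navitoclax and 7446 to 15453 in the combination. Lyz2 and Mrc1 of that list passed in the same main effect, at 1.62 ± 0.26 (adjusted p = 0.00595) and at 1.61 ± 0.37 (adjusted p = 0.0338); their part in the ligand values was not tested. The relatives Tyro3 and Mertk were among 10 related receptors, of which 8 were tested and none passed.

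Among 17 other lineage factors, of which 14 were tested, Sox9 alone passed, in the alisertib main effect and between the combination and vehicle. Of all genes tested, 4.5% and 2.54% passed in these comparisons. SOX9, a relative of SOX10, is counted among the marks of dedifferentiated melanoma. It was 435, 360 and 380 in vehicle, 742, 753 and 930 under alisertib, 748, 387 and 555 under navitoclax, and 838, 829 and 865 in the combination. All alisertib and combination libraries exceeded the vehicle libraries, and the navitoclax libraries overlapped both vehicle and alisertib. Of all genes, 21.2% did not overlap vehicle under alisertib and 19.2% in the combination, in either direction. Sox9 rose by 0.84 ± 0.15 in the alisertib main effect (adjusted p = 0.0113, limma), a call kept in 20 of 20 alternatives.

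Between the combination and vehicle Sox9 rose by 1.11 ± 0.21 (adjusted p = 0.0223), and between alisertib and vehicle the difference was 1.04 ± 0.21 (adjusted p = 0.0521). The combination call was lost with only the groups compared (adjusted p = 0.0643), without vehicle 1 (0.0723), vehicle 2 (0.0612), vehicle 3 (0.0617), combination 1 (0.0657), combination 2 (0.0606) or combination 3 (0.0521), and without vehicle 2 and combination 3 together (0.0661). Sox9 also belongs to a list of 12 genes of the dedifferentiated state, where it alone passed in any comparison, so both lists hold the same result. The median difference of the 12 was 0.25 in the alisertib main effect, with 9 above 0. It was 0.10 between the combination and vehicle, with 6 above 0. None of the 4 tested genes of the neural crest-like state passed. The macrophage sums given above were also higher in every library that received alisertib than in vehicle, and their part in the Sox9 values was not tested.

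**Figure D5:**
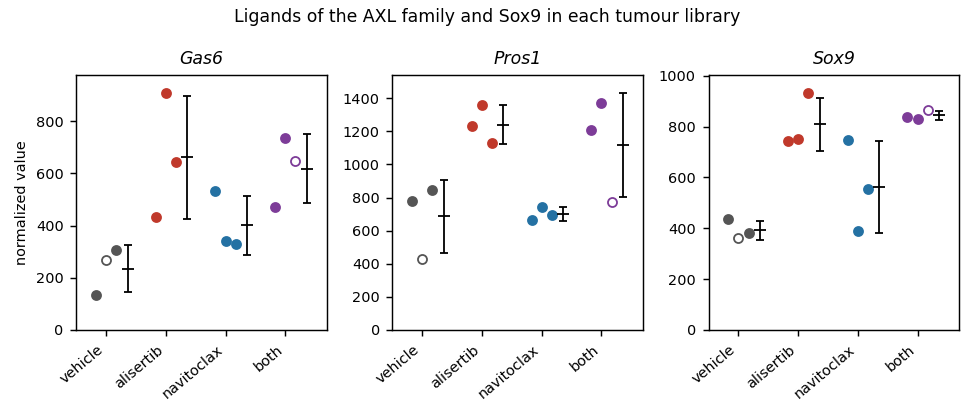
Normalized value of Gas6, Pros1 and Sox9 in each library by treatment (both = combination), with the mean ± SD of 3 libraries and open symbols for vehicle 2 and combination 3. Sox9 lies between 742 and 930 in the 6 libraries that received alisertib and between 360 and 435 in vehicle.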

How the data were processed

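RNA was sequenced from 12 tumour libraries. The values deposited by the authors are a signal, gene counts scaled per library: 100% of them were whole multiples of 1 step per library within 0.001. Whole reads were recovered by dividing by that step. DESeq2, Subread 1.5.1, featureCounts and HISAT2 2.0.6 appear in the submitters' processing notes, with builds mm10 and GRCm38.p4; their roles, the strand setting and the annotation release are not given in the sources used here. Coordinates and exon lengths came from GENCODE M21 by identifier (50376 of 50600 matched) and promoters from RefSeq (GRCm38.p6).

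The 16993 genes that reached 10 in 3 or more libraries were tested on log2(value + 2) with limma 3.58.1 (R 4.3.3), fitting a mean per group to all 12 libraries with a trended, robust moderated variance. P-values were adjusted by Benjamini-Hochberg over all genes tested in a comparison, with a threshold of 0.05. Differences on this scale understate the change of low genes. A main effect is the mean effect of a drug with and without the other. The count tests on recovered reads, edgeR 4.0.16 quasi-likelihood and DESeq2 1.42.0, were alternatives; edgeR called 148 genes between alisertib and vehicle, 11 between navitoclax and vehicle and 352 between the combination and vehicle. Recovery of known changes was checked on simulated data, with an outcome that is not given here. The simulated libraries differed in depth but held no other effect of a library, such as that of vehicle 2 and combination 3. Values of 3 reads (2.29 to 10.9) cover counting error only.

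The genes, the related lists, the comparisons and the alternatives were chosen with earlier results of these data known. Named beyond the 10 genes are up to 4 members of each list by smallest p, any that passed, and the 5 genes most like Mitf and Axl. A result of a marker list is not reported here.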

Additional observations from a re-analysis of the deposited data

How the results depend on the processing

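Of 1485 values of the 9 genes under 21 alternatives, 117 changed sign and 1 passed the threshold (Erbb3, alisertib main effect, ribosomal share as a covariate). No paired analysis was possible because the labels number no replicates. The low counts of Kit, Ngfr and Lef1 and the few non-ribosomal reads of vehicle 2 and combination 3 limit the depth. The cause of the changes below was not tested.

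The count of genes past the threshold was 148 between alisertib and vehicle, 11 between navitoclax and vehicle, 431 between the combination and vehicle, 0 between the combination and alisertib, 202 between the combination and navitoclax, 765 in the alisertib main effect, 0 in the navitoclax main effect and 1 in the interaction. With DESeq2, the count was 663 in alisertib against vehicle, 87 in navitoclax against vehicle, 1245 in the combination against vehicle, 1097 in the combination against navitoclax, 1708 in the alisertib main effect, 28 in the navitoclax main effect and 8 in the interaction. With no filter on low values, the count was 117 in the combination against navitoclax, 511 in the alisertib main effect and 324 in the combination against vehicle. Smaller moves under each alternative are left out of this paragraph. With a pseudocount of 0.5, the count was 3 in navitoclax against vehicle. With a pseudocount of 8, the count was 21 in navitoclax against vehicle, 1 in the navitoclax main effect and 3 in the interaction. With only the groups compared in the fit, the count was 90 in alisertib against vehicle, 0 in navitoclax against vehicle, 66 in the combination against vehicle and 13 in the combination against navitoclax. With the ribosomal share as a covariate, the count was 1068 in alisertib against vehicle, 20 in navitoclax against vehicle, 2561 in the combination against vehicle, 955 in the combination against navitoclax, 3310 in the alisertib main effect and 3 in the navitoclax main effect. With vehicle 2 and combination 3 left out, the count was 358 in the combination against navitoclax, 1494 in the alisertib main effect and 0 in the interaction.

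With 1 library left out in turn, the count of genes ranged from 49 to 198 in alisertib against vehicle, 2 to 20 in navitoclax against vehicle, 111 to 385 in the combination against vehicle, 53 to 293 in the combination against navitoclax, 314 to 763 in the alisertib main effect and 0 to 1 in the interaction.

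None of the values with a changed sign passed the threshold. Under TMM scaling, values with the opposite sign were Erbb3 -0.023 in the combination against alisertib. Under edgeR, values with the opposite sign were Pax3 -0.0040 in alisertib against vehicle, Ngfr 0.12 in navitoclax against vehicle, Mitf 0.070 and Ngfr -0.046 in the combination against vehicle, Erbb3 -0.0042 in the combination against alisertib, Ngfr -0.16 in the combination against navitoclax, Ngfr -0.034 in the alisertib main effect, Axl 0.0028 in the navitoclax main effect and Ngfr -0.26 in the interaction. Under DESeq2, values with the opposite sign were Pax3 -0.019 in alisertib against vehicle, Ngfr 0.073 in navitoclax against vehicle, Mitf 0.058 in the combination against vehicle, Ngfr -0.040 in the combination against navitoclax, Axl 0.00050 and Ngfr 0.030 in the navitoclax main effect and Ngfr -0.085 in the interaction. Under a pseudocount of 0.5, values with the opposite sign were Ngfr -0.0052 in the combination against vehicle. With the ribosomal share as a covariate, values with the opposite sign were Pax3 -0.19 and Sox10 0.025 in alisertib against vehicle, Pax3 -0.18, Mitf -0.10, Ngfr 0.23 and Tfap2a -0.016 in navitoclax against vehicle, Mitf 0.11, Ngfr -0.18 and Ednrb 0.015 in the combination against vehicle, Mitf 0.21 and Ngfr -0.41 in the combination against navitoclax, Ngfr -0.0019 in the alisertib main effect and Pax3 0.095, Mitf 0.0020, Erbb3 0.048 and Ngfr -0.82 in the interaction. With vehicle 2 and combination 3 left out, values with the opposite sign were Pax3 -0.25, Tfap2a -0.0026 and Sox10 0.076 in alisertib against vehicle, Pax3 -0.13, Mitf -0.0086, Erbb3 -0.019, Ngfr 0.16, Tfap2a -0.015 and Sox10 0.011 in navitoclax against vehicle, Mitf 0.18, Ngfr -0.26 and Ednrb 0.034 in the combination against vehicle, Mitf 0.19 and Ngfr -0.42 in the combination against navitoclax, Axl 0.017 in the navitoclax main effect and Pax3 0.047, Erbb3 0.044 and Ngfr -0.90 in the interaction.

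With 1 library left out in turn, the ranges that crossed 0 are given here. In alisertib against vehicle they were Pax3 -0.25 to 0.18, Kit -0.82 to 0.47, Ngfr -0.33 to 0.48, Tfap2a -0.014 to 0.35 and Sox10 -0.14 to 0.076. In navitoclax against vehicle they were Pax3 -0.13 to 0.30, Mitf -0.0086 to 0.36, Axl -0.52 to 0.012, Erbb3 -0.021 to 0.20, Ngfr -0.89 to 0.19, Tfap2a -0.015 to 0.29 and Sox10 -0.20 to 0.011. In the combination against vehicle they were Mitf -0.25 to 0.41, Ngfr -0.61 to 0.36 and Ednrb -0.18 to 0.12. In the combination against alisertib they were Erbb3 -0.065 to 0.11 and Ngfr -0.74 to 0.20. In the combination against navitoclax they were Mitf -0.47 to 0.19, Axl -0.39 to 0.10 and Ngfr -0.42 to 0.89. In the alisertib main effect they were Mitf -0.026 to 0.31 and Ngfr -0.15 to 0.51. In the navitoclax main effect they were Pax3 -0.28 to 0.031, Mitf -0.23 to 0.10, Axl -0.16 to 0.13, Erbb3 -0.0077 to 0.11 and Ngfr -0.51 to 0.033. In the interaction they were Erbb3 -0.19 to 0.026 and Ngfr -0.54 to 0.76.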
